A study of Mus musculus with 31 samples.

Results

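The mitochondrial ribosomal protein genes were examined in ATAC-seq peaks from parental NIH-3T3 cells, a mouse fibroblast line. Members were the protein-coding genes of the mouse annotation whose symbol is Mrpl or Mrps followed by a number, with any letter suffix. There were 78 of them among 21938 protein-coding genes, 49 named for the large ribosomal subunit (Mrpl) and 29 for the small one (Mrps). The study overexpressed transcription factors in this line to ask how they change chromatin accessibility, and the parental line, labelled WT, carried none of the transgenes. The labels give 1 library for it, made from 50000 cells with 0.5 µM of the Tn5 transposase and 12 PCR cycles. They list no doxycycline for this library, whereas the methods describe doxycycline for NIH-3T3 cells in general. The other 30 samples of the series were not analysed here, so there was no second condition and no replicate error, and no test between samples was possible.

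The mitochondrial ribosome translates the few proteins encoded by mitochondrial DNA, all of them subunits of the respiratory chain and the ATP synthase. Its ribosomal RNAs come from mitochondrial DNA, whereas every one of its proteins is encoded in the nucleus, made in the cytosol and imported. Some of these proteins have counterparts in bacterial ribosomes and others were added during the evolution of mitochondria. ATAC-seq reads where Tn5 can insert into chromatin, and the promoters of genes that most cells use are among the sites it enters most readily. A peak describes accessibility of the promoter and not the amount of transcript or protein made from it.

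The promoters of 6 members carry the contrasts described in this report, and their reference sequence is shown first (mouse build mm10, GRCm38.p6, from RefSeq). It is the sequence of the reference strain and was not read from NIH-3T3 cells. Each runs 5′ to 3′ on the strand of the gene, from 250 bases before the reference start to 30 bases after it, 280 bases in all. Mrps9 (chr1:42850983-42851262, plus strand) had the highest promoter peak and Mrps34 (chr17:24894866-24895145, plus strand) the lowest. Mrps11 (chr7:78782869-78783148, plus strand) shares its peak with a second member, Mrpl46, which starts 30 bp away and is read in the opposite direction. Mrps12 (chr7:28741791-28742070, minus strand), Mrps18b (chr17:35916360-35916639, minus strand) and Mrpl38 (chr11:116138839-116139118, minus strand) were among the members with the most matches to 10 short words known from promoters. Mrps18b, with 4 matches, was tied with Mrpl37 and Mrpl43 and was taken because its peak was the highest of these 3. Capitals mark every match to one of those words on either strand. The words are spelled out with the promoter results.
Mrps9: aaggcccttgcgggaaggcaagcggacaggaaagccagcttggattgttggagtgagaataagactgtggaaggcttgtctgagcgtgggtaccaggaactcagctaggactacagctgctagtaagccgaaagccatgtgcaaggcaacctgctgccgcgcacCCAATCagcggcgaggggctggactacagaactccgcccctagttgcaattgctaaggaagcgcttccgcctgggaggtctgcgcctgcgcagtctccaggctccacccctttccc
Mrps34: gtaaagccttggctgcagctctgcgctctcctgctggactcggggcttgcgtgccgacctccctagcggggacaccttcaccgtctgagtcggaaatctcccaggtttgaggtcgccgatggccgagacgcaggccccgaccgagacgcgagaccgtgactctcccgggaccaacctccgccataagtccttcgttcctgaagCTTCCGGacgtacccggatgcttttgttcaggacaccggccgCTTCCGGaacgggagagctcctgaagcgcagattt
Mrps11: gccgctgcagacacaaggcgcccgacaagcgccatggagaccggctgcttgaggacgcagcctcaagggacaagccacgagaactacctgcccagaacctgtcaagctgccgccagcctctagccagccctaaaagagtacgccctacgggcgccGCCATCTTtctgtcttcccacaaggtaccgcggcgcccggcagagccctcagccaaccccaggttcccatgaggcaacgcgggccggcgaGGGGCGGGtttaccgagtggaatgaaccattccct
Mrps12: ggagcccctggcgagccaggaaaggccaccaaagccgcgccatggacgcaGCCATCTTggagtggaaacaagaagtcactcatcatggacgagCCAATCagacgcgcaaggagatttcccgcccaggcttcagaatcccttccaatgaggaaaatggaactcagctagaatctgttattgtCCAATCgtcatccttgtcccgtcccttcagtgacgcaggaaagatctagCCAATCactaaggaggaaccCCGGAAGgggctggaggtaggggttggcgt
Mrps18b: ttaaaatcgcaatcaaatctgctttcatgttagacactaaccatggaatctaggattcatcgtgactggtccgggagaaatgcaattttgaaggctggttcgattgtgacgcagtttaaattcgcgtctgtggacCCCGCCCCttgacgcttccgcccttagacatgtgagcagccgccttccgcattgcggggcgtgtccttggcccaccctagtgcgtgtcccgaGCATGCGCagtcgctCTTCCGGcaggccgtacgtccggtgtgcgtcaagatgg
Mrpl38: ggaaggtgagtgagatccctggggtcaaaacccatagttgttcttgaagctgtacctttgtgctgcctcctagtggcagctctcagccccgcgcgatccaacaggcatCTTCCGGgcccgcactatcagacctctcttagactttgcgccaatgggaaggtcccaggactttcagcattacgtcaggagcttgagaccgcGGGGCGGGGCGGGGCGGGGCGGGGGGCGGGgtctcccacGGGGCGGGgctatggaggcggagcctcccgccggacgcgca

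In these sequences the single match of Mrps9 is a CCAAT box word at position −86, counted from the start with no position 0. Mrps34 has an ETS word at −47 and another at −5. Mrps11 has a YY1 word at −95 and an SP1 word at −5. Mrps12 has 5 matches, namely a YY1 word at −200, CCAAT box words at −157, −69 and −20 and an ETS word that begins at position 1. Mrps18b has an SP1 word at −115, an NRF1 word at −23 and an ETS word at −8, and its YY1 word at position 24 runs past the printed end. Mrpl38 has an ETS word at −142 and 6 SP1 words, the first 5 of which overlap. The gene with the highest peak thus has 1 match and the gene with the lowest has 2, of another word.

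A gene was called open when any of its annotated transcripts started inside a peak or no more than 1 kb from one. All 78 members were open, beside 53.7% of all protein-coding genes (11788 of 21938). The number of closed members was 0, so no exception could be described. Among CpG-rich protein-coding genes, the class to which most members belong, 82.5% were open (7946 of 9626). A peak also lay directly over an annotated start in all 78 members, which held for 48.7% of protein-coding genes. The same was true of the reference start, the start of the best-supported principal transcript, in all 78 members and in 44.0% of protein-coding genes. With fold enrichment of at least 5 required, 74 of 78 members kept a peak, beside 90.7% of the open protein-coding genes. The 4 members under this threshold were Mrps34, Mrpl24, Mrpl55 and Mrpl23.

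The height of a peak was taken from its fold enrichment, the number of fragments over the summit plus 1 divided by the local expected number plus 1. For genes with several peaks the highest was used. The median fold enrichment of the 78 members was 10.8, with quartiles of 7.76 and 13.3, and the values ran from 3.83 to 18.4. The 11788 open protein-coding genes had a median of 9.86 and quartiles of 7.27 and 12.4, so the members lay within the range of open promoters. Of the members 42 were above the median of open protein-coding genes, 26 were above their upper quartile and 15 below their lower quartile. Of the members 11 reached the highest 10% of open protein-coding genes.

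The highest peak belonged to Mrps9, a small-subunit protein with a bacterial counterpart, with a fold enrichment of 18.4 from 166 fragments at the summit (95% Poisson interval 142 to 193). Mrpl44, a large-subunit protein with a fold like that of ribonuclease III, followed with 18.01 from 102 fragments (83.2 to 124). Mrps14 had 17.0 from 156 fragments (132 to 182). These intervals cover counting error only, and by them the 3 genes cannot be ranked by fold enrichment. Mrps33 reached 16.7 from 106 fragments and Mrpl19, a protein with a bacterial counterpart, 16.2 from 83 fragments. Mrpl19 thus had fewer fragments than the other four and a smaller local expectation, 4.20 fragments against 8.09 at Mrps9.

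The lowest peak was that of Mrps34, with a fold enrichment of 3.83 from 22 fragments (13.8 to 33.3). Mrpl24, whose bacterial counterpart lies near the exit of the peptide tunnel, had 4.59 from 21 fragments (13.0 to 32.1). Mrpl55, another protein with a bacterial counterpart, had 4.75 from 22 fragments (13.8 to 33.3). Mrpl23 had 4.99 from 19 fragments (11.4 to 29.7), the fewest of any member. The counting intervals of these 4 genes overlap one another and none of them reaches the interval of Mrps9, Mrpl44 or Mrps14. Mrpl49 came next with 5.13 from 44 fragments, and its place near the bottom went with a high local expectation of 7.77 fragments. The least certain member peak was still called with a −log10 q of 6.09. Across members the median was 62 fragments, with quartiles of 43.3 and 82.8, beside 64 fragments for open protein-coding genes. There were 8 members with fewer than 30 fragments and 15 with more than 100.

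**Figure D1:**
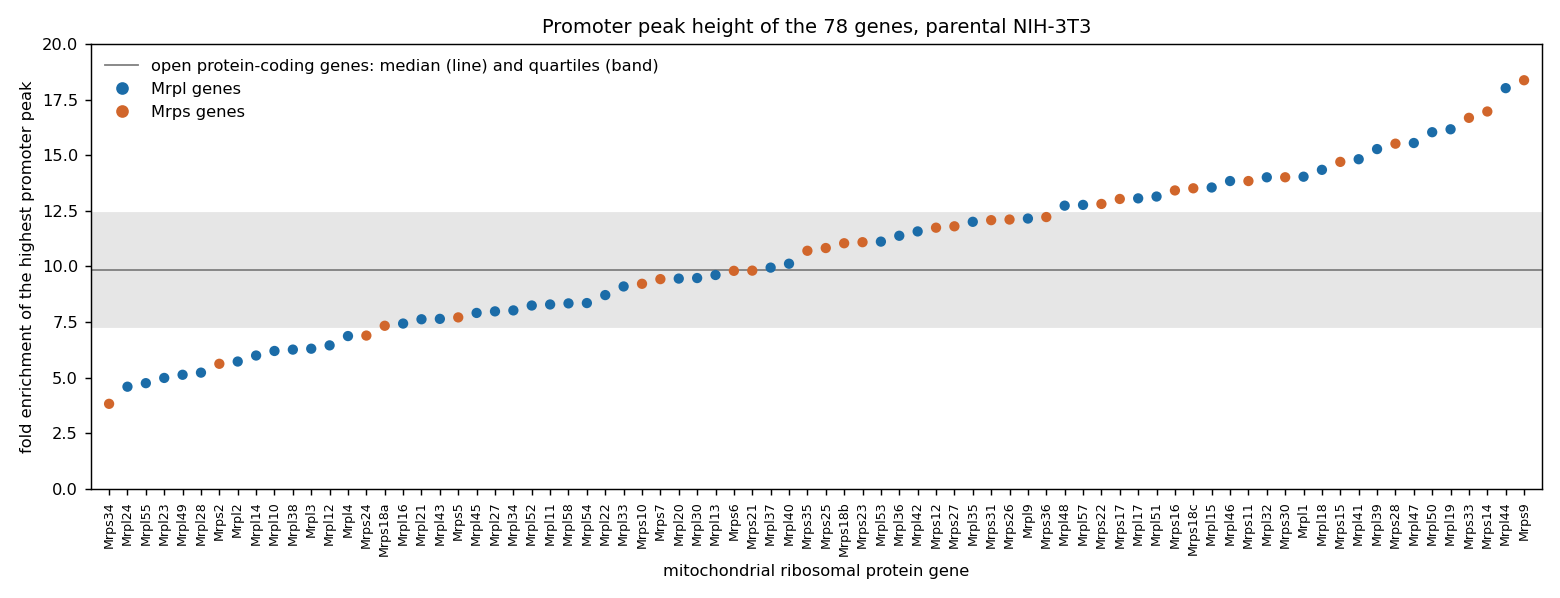
Fold enrichment of the highest promoter peak (vertical axis, ratio) for each of the 78 genes in order of height, blue for Mrpl and orange for Mrps symbols, in the 1 parental NIH-3T3 library. The line and band are the median (9.86) and quartiles (7.27 and 12.4) of open protein-coding genes, and the points run from 3.83 at Mrps34 to 18.4 at Mrps9 with 42 of 78 above the line.

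Genes of the small subunit had a median fold enrichment of 11.8 (quartiles 9.80 and 13.5, 29 genes) and genes of the large subunit 9.45 (7.43 and 13.1, 49 genes). The ranges of the subunits overlapped over nearly their whole length, since Mrps34 was the lowest of all members and Mrps9 the highest. Of the 10 lowest members 8 were Mrpl genes, beside 49 of all 78 members. Most members are Mrpl genes, so this count says little about the subunits. The symbol does not always give the subunit, because the products of Mrps30 (14.0) and Mrps18a (7.33) are found in the large one. Mrps36 (12.2) is now known as a component of the oxoglutarate dehydrogenase complex rather than of the ribosome, and it was kept because the symbol rule takes it in.

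The 46 members with a counterpart in bacterial ribosomes had a median fold enrichment of 9.47 and the 31 without one had 11.1. Quartiles were 7.03 and 13.5 for the first and 8.35 and 13.0 for the second, so most of each group lay inside the range of the other. In the stalk that recruits translation factors, fold enrichment was 6.20 at Mrpl10, 6.45 at Mrpl12 and 8.29 at Mrpl11, all below the median of open protein-coding genes. Around the exit of the peptide tunnel it was 8.71 at Mrpl22, 7.91 at Mrpl45, which links the ribosome to the inner membrane, 4.99 at Mrpl23 and 4.59 at Mrpl24, but 13.1 at Mrpl17, 14.0 at Mrpl32 and 15.5 at Mrpl47. Genes for this region thus lay on both sides of that median. Among small-subunit genes it was 11.7 at Mrps12, whose bacterial counterpart helps form the decoding centre, 12.8 at Mrps22, 11.8 at Mrps27, a pentatricopeptide repeat protein, 9.43 at Mrps7 and 5.62 at Mrps2. Mrpl58, a peptidyl-tRNA hydrolase that rescues stalled ribosomes and is also a ribosome subunit, had 8.34. The genes of this paragraph were picked by role with their values known, so the groups are a description of where those genes fell.

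The median width of the members' peaks was 733 bp (quartiles 556 and 904), which was below the median of open genes. It stood beside 796 bp (568 and 1027) for all open protein-coding genes and 859 bp for CpG-rich ones. Of the 78 members 34 exceeded the median of open genes, 11 were above the upper quartile and 21 below the lower one. Mrpl37 had the widest peak at 1505 bp, then Mrpl41 with 1331 bp, Mrpl13 with 1213 bp and Mrpl51 with 1180 bp. All of these 4 genes have a protein-coding neighbour that starts within 1 kb in the other direction. The narrowest peaks were those of Mrpl55 (271 bp), Mrpl3 (332 bp), Mrps2 (352 bp) and Mrpl35 (396 bp). None of these had a protein-coding partner of that kind. Width and height went together only loosely, with a Spearman rank correlation of 0.42 across the 78 genes of the 1 library. Mrpl23, for example, had a wide peak of 945 bp and a fold enrichment of 4.99, whereas Mrpl35 had 12.0 in 396 bp.

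Peaks sat on the start itself. Measured at the peak over the reference start, the median reach was 296 bp upstream and 394 bp downstream, beside 356 bp and 439 bp for open protein-coding genes. The summit lay within 100 bp of the reference start in 62 of 78 members (79.5%), beside 62.8% of the protein-coding genes with a peak there. Respiratory chain genes reached 77.1% and cytosolic ribosomal protein genes 71.25% on the same measure. Among members it was 63.6% in the 33 with a protein-coding neighbour that starts within 1 kb in the other direction. In the other 45 it was 91.1%. Among all protein-coding genes with such a neighbour it was 54.0%. A lower share at paired starts was thus also seen outside the family. Summits were upstream of the start in 38 members and downstream in 40, with a median offset of 2 bp. In 11 members the summit was more than 200 bp away. Most distant were Mrps18b, with its summit 438 bp upstream, Mrpl51 with 419 bp and Mrps12 with 417 bp. Each of these peaks also covered the start of a neighbouring gene read in the opposite direction.

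**Figure D2:**
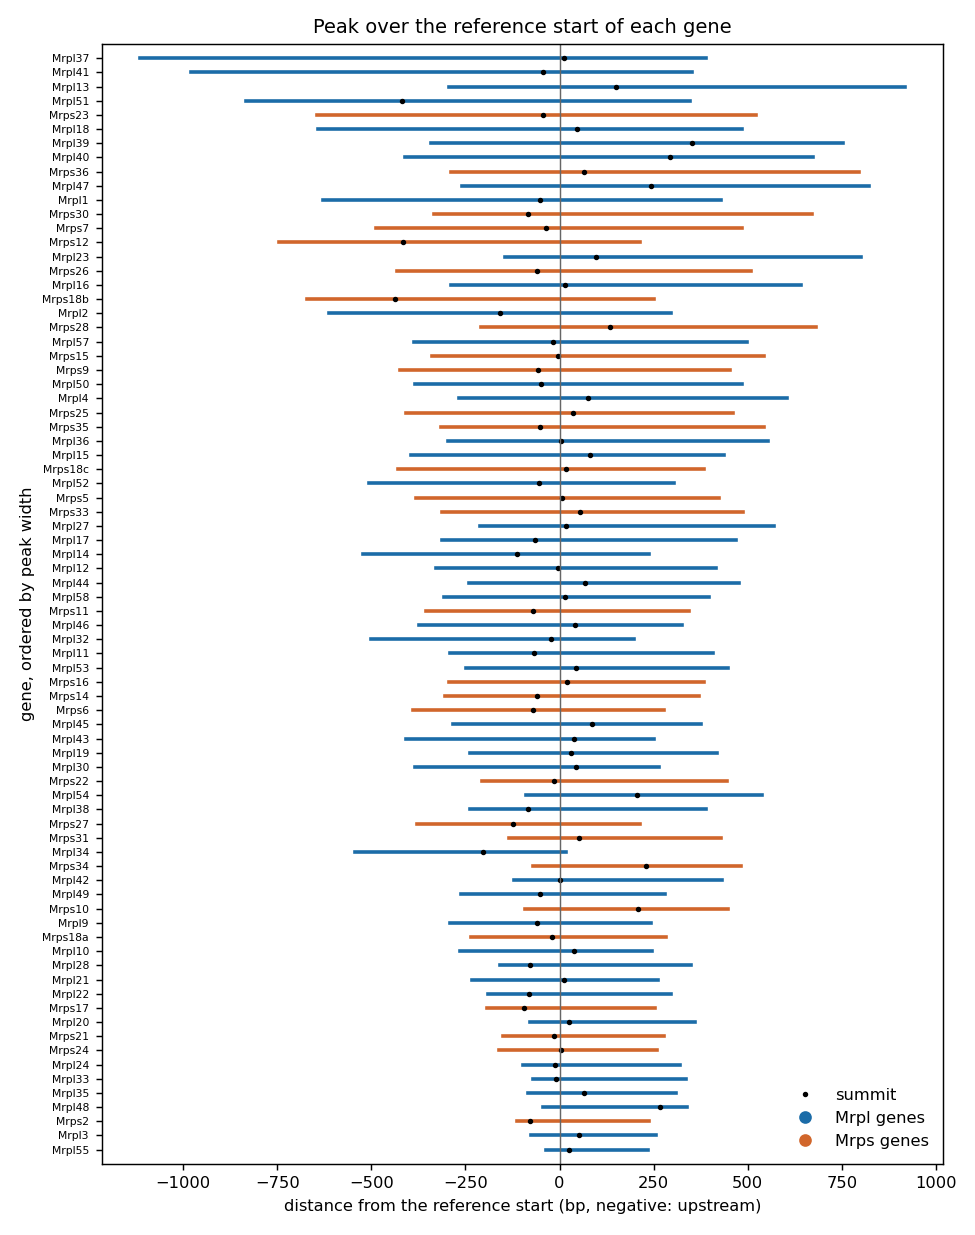
Extent of the peak over the reference start of each of the 78 genes (horizontal bars, distance from the start in bp, negative values upstream), ordered by width, with the summit as a black point. Every bar crosses the start, the median reach is 296 bp upstream and 394 bp downstream, and 62 of the 78 summits lie within 100 bp of it.

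A single promoter peak was found at 69 members (88.5%), beside 75.9% of open protein-coding genes. The other 9 had several. Mrpl48 had 4 peaks, because its annotated transcripts start at places far apart. The peak over its reference start had a fold enrichment of 6.83 and was 385 bp wide, and a second inside the gene reached 10.3. The highest, 12.7, covered another start of Mrpl48 and also the start of Rab6a, a gene of the secretory pathway read in the other direction. The fourth peak of Mrpl48, next to the highest, had 3.30. Mrpl14 had 3 peaks of 3.43, 6.00 and 4.82, and only the middle one covered its reference start. Mrpl34 was the only member whose highest peak had its summit more than 500 bp from every start of the gene. That peak (8.02) ended 992 bp away at the neighbouring gene Abhd8, and the peak over the start of Mrpl34 itself was almost as high at 7.87 with 81 fragments against 66. Mrpl36 had a peak of 8.24 that it shared with Ndufs6, a subunit of respiratory complex I, and a higher one of 11.4 over a start of its own. At Mrpl40 a peak of 10.1 was followed by one of 5.83 that lay 575 bp from the nearest start. In the other 4 genes, Mrps34, Mrps6, Mrps10 and Mrpl30, the additional peaks were at or below 4.62.

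Many members had several annotated starts, 324 in all. Of these 276 had a peak within 1 kb and 48 had none. In 51 members every start was near a peak, whereas 27 had at least 1 start without a peak. The open call of those 27 genes therefore concerned some of their annotated starts. Their reference start nevertheless lay in a peak in each of them. No share over other protein-coding genes stands beside these counts of starts, so they do not set the members apart. RefSeq promoters were matched by symbol for 69 of 78 members, and in 53 of them the RefSeq start was within 50 bp of the reference start used here.

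A divergent partner was defined as another protein-coding gene on the opposite strand, head to head, with a start within 1 kb. Of the members 33 of 78 (42.3%) had such a partner, beside 12.3% of all protein-coding genes and 20.6% of the open ones. Among Mrpl genes the share was 49.0% (24 of 49) and among Mrps genes 31.0% (9 of 29). Divergent genes were in general mostly open, at 89.6% of 2708. The partner started upstream of 25 members at distances of 26 to 935 bp (median 66 bp), and in 8 the transcripts overlapped at their 5′ ends. In 30 of the 33 the starts were within 200 bp of each other. With starts within 500 bp required, 41.0% of members and 11.1% of all protein-coding genes had a partner. Most divergent starts were thus close outside the family too. All 33 partners were themselves open, and 32 lay at the same highest peak as the member. Both counts follow largely from the definitions, because a partner starts within 1 kb of a member and a peak that near makes it open. They are no separate result about the partners. The values of those 32 members are also values of the partners and cannot be divided between them. The exception was Mrpl36, whose highest peak was not the one at Ndufs6.

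Of the partnered members Mrpl44, beside Wdfy1, had the highest fold enrichment (18.01). It was followed by Mrpl50 beside the zinc-finger gene Zfp189 (16.0), Mrpl47 beside Ndufb5 (15.5), Mrpl41 beside Pnpla7 (14.8), Mrpl18 beside Tcp1 (14.3) and Mrps30 beside B430218F22Rik (14.0). Ndufb5 encodes a subunit of respiratory complex I and Tcp1 a subunit of the cytosolic chaperonin. At the lower end were Mrpl14 beside Tmem63b (6.00), Mrpl2 beside Klc4 (5.73), Mrpl49 beside Fau (5.13), which encodes a protein of the cytosolic ribosome, and Mrps34 beside Eme2 (3.83). A partner was therefore found at both ends of the range.

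Mrps11 and Mrpl46 formed the only pair within the family, so the 33 members made 32 pairs. Their starts were 30 bp apart, and both lay in 1 peak of 700 bp with a fold enrichment of 13.8 from 65 fragments. The sequence printed for Mrps11 includes the start of Mrpl46 but only a short stretch upstream of it. The 78 members therefore had 77 distinct highest peaks. Mrps12 starts 172 bp from Sars2, the mitochondrial seryl-tRNA synthetase, and both share a peak of 11.7 and 959 bp. Of the partners 2 (Ndufb5 and Ndufs6) encode respiratory chain subunits, and Sars2 was the only one in the lists of mitochondrial translation genes. Mrpl43 starts 116 bp from Twnk, the helicase of mitochondrial DNA, and Mrps27 starts 81 bp from Ptcd2, a mitochondrial pentatricopeptide repeat protein. Most other partners act elsewhere in the cell, such as Psma2 (a proteasome subunit, at Mrpl32), Hira (a histone chaperone, at Mrpl40), Ncapd2 (a condensin subunit, at Mrpl51), Ska3 (a kinetochore protein, at Mrpl57), Helq (a DNA helicase, at Mrps18c) and Eme1 (a subunit of a DNA junction nuclease, at Mrpl27). The remaining pairs were Mrpl48 with Rab6a, Mrpl9 with Oaz3, Mrps18b with Ppp1r10, Mrpl37 with Cyb5rl, Mrpl13 with Mtbp, Mrpl30 with Mitd1, Mrps7 with Gga3, Mrpl54 with Apba3, Mrps5 with Zfp661, Mrpl21 with Ighmbp2 and Mrpl10 with Lrrc46, with fold enrichments from 6.20 to 12.7.

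**Figure D3:**
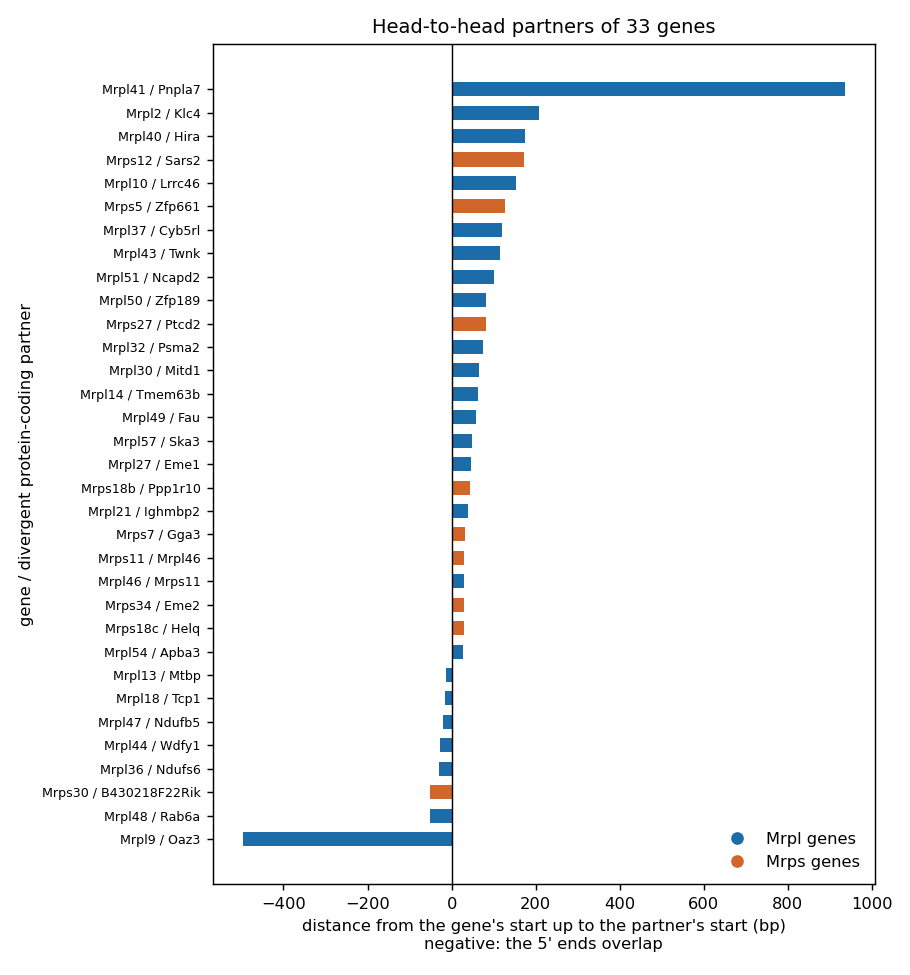
Distance from the start of each of the 33 members with a divergent protein-coding partner to the start of that partner (bars, bp, negative where the 5′ ends overlap), blue for Mrpl and orange for Mrps symbols. Of the bars 30 are within 200 bp, with Mrpl41 and Pnpla7 farthest apart at 935 bp.

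Members with a partner had a median width of 815 bp and a median fold enrichment of 11.4 (33 genes), against 677 bp and 9.81 for the 45 without. The quartiles of fold enrichment, 7.98 and 13.8 against 7.43 and 13.0, overlapped for most of their length. All open protein-coding genes with a partner had a median width of 906 bp and a median fold enrichment of 10.7. A wider peak at paired starts was thus also seen outside the family. A further 4 members, Mrps26, Mrps21, Mrpl53 and Mrpl55, had a divergent partner annotated as non-coding, which brought the share with a partner of any type to 47.4%, beside 22.7% of protein-coding genes.

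The CpG content of the members' promoters was described next. Over the 300 bp from 250 before to 50 after the reference start, median GC content was 57.5% (56.0% for all protein-coding genes) and the median ratio of observed to expected CpG was 0.82 (0.56 for all). A promoter was called CpG-rich at a GC content of at least 50% and a ratio of at least 0.6, which 60 of 78 members met (76.9%), beside 43.9% of protein-coding genes. The other 18 members were open as well. This stood beside 31.2% of the protein-coding genes that were not CpG-rich (3840 of 12307). Height hardly differed between these members, with medians of 10.8 for the CpG-rich ones and 10.3 for the others, and the 2 members with the highest peaks, Mrps9 and Mrpl44, were among the 18. Fold enrichment had Spearman correlations of −0.13 with GC content and −0.08 with the CpG ratio across the 78 genes.

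Of 10 words searched on both strands in the same 300 bp, the one most often present in members was CCGGAAG, the core recognised by ETS factors such as GABPA, a regulator of many genes for mitochondrial proteins. It occurred in 29 of 78 members (37.2%), in 11.2% of all protein-coding promoters and in 22.6% of the promoters that were CpG-rich and open. The matches lay close to the start, with 27 of 33 within 50 bp and a median position of −12. For all protein-coding genes 58.1% of the matches were within 50 bp. The word AAGATGGC, recognised by YY1, was in 11 members (14.1%), beside 3.09% of all promoters and 5.97% of the open CpG-rich ones. Of its 11 matches 8 were within 50 bp, beside 57.4% of the matches in all protein-coding genes. The word GCATGCGC, from the palindrome of NRF1, a regulator of nuclear genes for mitochondria, was in 8 members (10.3%), beside 3.73% and 6.96%. These were Mrpl9, Mrpl10, Mrpl17, Mrpl22, Mrpl32, Mrpl33, Mrps18b and Mrps28. A word match is a description of the letters in this window and does not say that a factor was bound there.

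Other words were not more frequent in members than in open CpG-rich promoters, or occurred in 7 members or fewer. The SP1 word GGGGCGGG was in 22 members (28.2%), beside 22.1% of all promoters and 39.7% of open CpG-rich ones. The CCAAT box word CCAATC was in 12 (15.4%, beside 17.9% and 22.7%) and the E-box CACGTG in 5 (6.41%, beside 7.72% and 11.7%). TATAAA, the TATA box word, was in 7 (8.97%, beside 12.6% and 4.52%). Of its 8 matches 1 was within 50 bp of the start, beside 37.7% of the matches in all protein-coding genes. ACTACAA, found in the element bound by THAP11 and ZNF143, was in 6 (7.69%, beside 3.77% and 4.37%). TGACTCA, the AP-1 site, was in 3 (Mrpl4, Mrpl33 and Mrps5), which is 3.85%, beside 4.49% and 2.25%. TGACGTCA, the cyclic AMP response element, was in 2 (Mrpl16 and Mrpl49), which is 2.56%, beside 2.499% and 4.35%. Matches to different words, or to 1 word repeated, could overlap. At least 1 word was present in 64 members, 14 had none, and Mrps18b and Mrpl37 had 4 kinds each. No share over other protein-coding promoters stands beside these last counts, so they do not set the members apart.

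**Figure D4:**
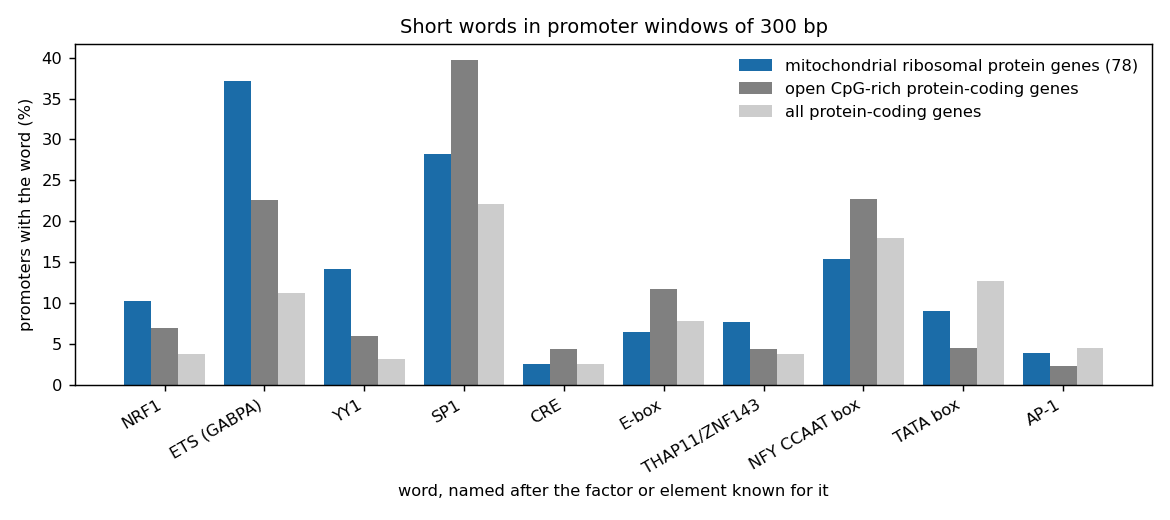
Percentage of promoter windows of 300 bp (vertical axis) that hold each of 10 short words on either strand, for the 78 members (blue), open CpG-rich protein-coding genes (dark grey) and all protein-coding genes (light grey). The ETS word is in 37.2% of members, 22.6% of open CpG-rich and 11.2% of all promoters, and the SP1 word in 28.2%, 39.7% and 22.1%.

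Word content and peak height were then set side by side, for 5 words chosen after their counts were known. Members with the CCAAT box word had a median fold enrichment of 13.5 (12 genes) and those without it 9.81 (66 genes), and among all open protein-coding genes the medians were 11.1 and 9.57. For the ETS word the medians were 9.81 with and 11.4 without it, whereas among all open protein-coding genes they were 10.8 and 9.65. The members' medians thus differed in the opposite direction to those of open genes for the ETS word and in the same direction for the CCAAT box word. For the ETS word the members' quartiles were 8.02 and 12.1 with it and 7.63 and 14.0 without it, so the groups overlapped for most of their length. For the CCAAT box word they were 11.3 and 14.7 with it and 7.66 and 12.8 without it. For the YY1 word the members' medians were 11.4 and 10.1, for NRF1 11.6 and 10.4, and for SP1 10.3 and 10.96. Of all protein-coding genes with the ETS word 87.2% were open, and of those without it 49.5%. These 2 groups also differed in CpG content, since 77.6% of the first and 39.6% of the second were CpG-rich. How far the word and CpG content each went with openness was not tested.

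The other genes of mitochondrial translation were nearly all open too. The 5 proteins of the mitochondrial ribosome that go by other names had fold enrichments of 6.20 (Chchd1), 6.40 (Gadd45gip1), 6.50 (Dap3), 9.95 (Aurkaip1) and 10.4 (Ptcd3). Their median was thus below that of the 78 members, with only 5 genes behind it. A list of 14 translation factors and related proteins, which takes in Lrpprc and Slirp, was open throughout, with a median of 10.4. At its top were Guf1 (17.1) and the elongation factor gene Gfm1 (15.5). Mtfmt, which formylates the initiator tRNA, was at the bottom (4.89). All 19 mitochondrial tRNA synthetase genes were open, with a median of 11.4. Of 21 factors that assemble the ribosome or modify its RNA 20 were open, with a median of 12.4, and 1 was closed. This was Gtpbp10, a GTPase acting on the large subunit, although its promoter was CpG-rich (GC content 60.0%, CpG ratio 0.91).

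The cytosolic ribosome and the respiratory chain are the sets most like the members in function. Of 83 cytosolic ribosomal protein genes 81 were open, and the exceptions, Rpl3l and Rpl10l, are paralogues known for expression in striated muscle and testis. Their median fold enrichment was 9.08 and their median width 849 bp, and 22.9% had a divergent partner. Of 76 gene entries for respiratory chain and ATP synthase subunits 74 were open, with Ndufa1 and an entry for Atp5o as exceptions. Their medians were 10.9 and 799 bp, and 40.8% had a divergent partner, close to the 42.3% of the members. The 3 families therefore had nearly all their promoters open, and the quartiles of height overlapped among them.

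**Figure D5:**
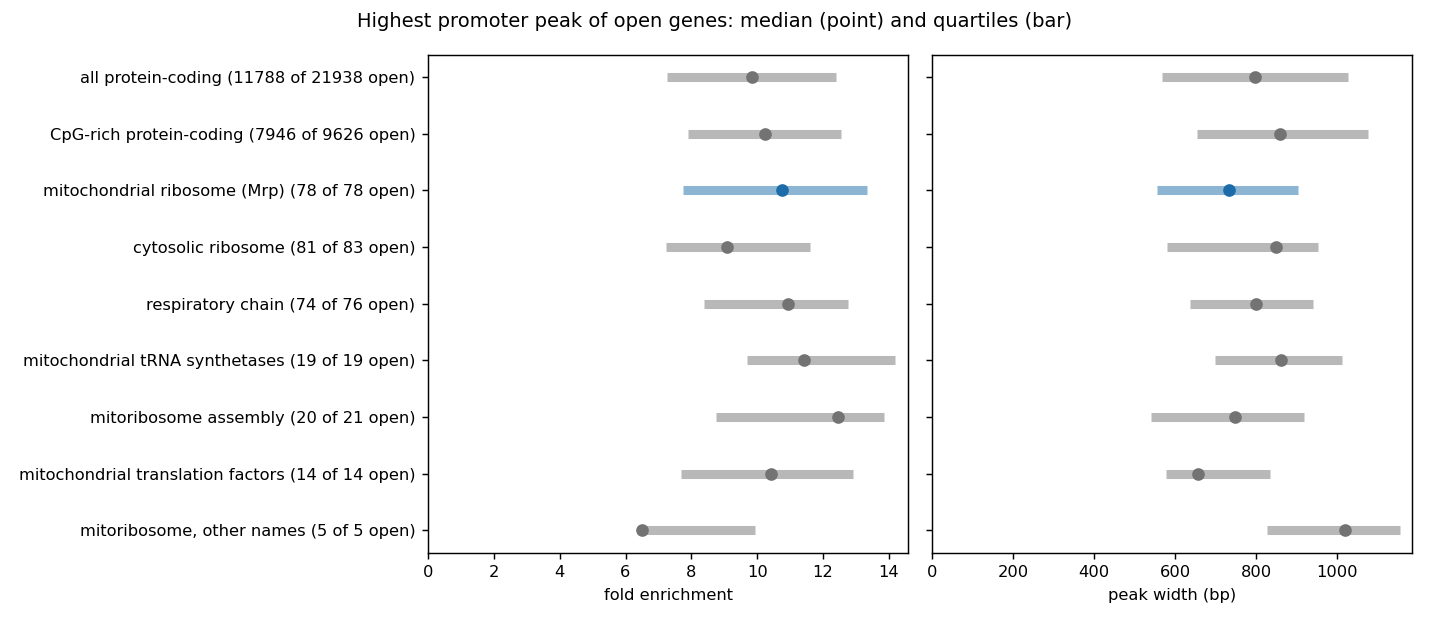
Median (point) and quartiles (bar) of fold enrichment (left, ratio) and of peak width (right, bp) at the highest promoter peak of open genes, for the members (blue), all and CpG-rich protein-coding genes and 6 related sets, each with the number open. The members' medians are 10.8 and 733 bp, those of the cytosolic ribosome 9.08 and 849 bp and those of the respiratory chain 10.9 and 799 bp.

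The whole list held 63456 peaks with a median fold enrichment of 6.04, a median width of 327 bp and a median of 29 fragments at the summit. The members' medians were above those of the list on all 3 measures. So were those of open protein-coding genes, at 9.86, 796 bp and 64 fragments, so this is not particular to the members. As a check of the cell type label, 9 of 10 fibroblast marker genes were open and Postn was closed, beside 53.7% of all protein-coding genes open. Fold enrichments of the open ones ran from 3.41 at Thy1 to 10.5 at Fn1. Of 10 markers of other cells 7 were closed, namely Epcam, Cdh1, Ptprc, Cd3e, Alb, Nanog and Pou5f1. The 3 open ones were Krt8 (3.25) and the endothelial genes Pecam1 (8.40) and Cdh5 (12.8). The peak of Cdh5 was higher than that of any of the fibroblast markers, so open promoters alone do not settle the cell type. The part of other cells in the members' peaks was not tested.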

How the data were processed

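The peak list of the single parental NIH-3T3 library was used. In the authors' processing, STAR mapped the read pairs to mm10, multiply mapped reads, Picard duplicates and reads off the main chromosomes were dropped, and MACS2 worked on whole fragments of this library alone. The submitters' processing notes give STAR 2.5.3a and MACS2 2.1.1.20160309. The deposited values per peak were a fold enrichment (a ratio of fragments at the summit to local expectation), a −log10 p and −log10 q from a Poisson test, and a score derived from the q. Peaks have a q of at most 0.05, so a weakly accessible promoter counts as closed. The number of reads is not part of the peak list, so depth is known only as fragments at each summit, solved here from fold enrichment and −log10 p. The solution was a whole number within 0.02 for 99.97% of peaks and was tested on simulated data. Poisson intervals cover counting error only, since a library without a replicate gives no measure of variation between preparations.

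Starts were those of all transcripts in GENCODE M21, and the reference start was that of the best principal transcript. Promoter features used the GRCm38 sequence, and 5 protein-coding genes whose window held unknown bases were left out of them. Promoter peaks were those within 1000 bp of a start. Members and gene lists were chosen with earlier results of these data known. Genes were named when they had the 5 highest or lowest fold enrichments, the 4 widest or narrowest peaks, a divergent partner or several peaks. Promoters were printed for the highest and lowest member and the 3 others with most word matches, ties going to the higher fold enrichment. Genes named by role, neighbours and the Mrps11 promoter were chosen after values were seen. No test was made, since only 1 library was used. Alternatives were stricter q, fold enrichment, other distances, starts and partner types. Software was pysam 0.24.0 and SciPy 1.17.1 with pandas 2.3.3, matplotlib 3.10.9 and NumPy 2.4.6 under Python 3.11.15. Other samples were not used here.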

Additional observations from a re-analysis of the deposited data

How the results depend on the processing

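The share of open members was 100% under 7 of the 8 alternatives (q of 0.01 or 1e-05, a peak over the start, within 500 or within 5000 bp, coding transcripts only, and reference starts only). It was 94.9% when fold enrichment of at least 5 was required, by construction of that limit. Over the same 8 alternatives the share of all protein-coding genes ran from 48.7% to 62.8%. The members' median fold enrichment ran from 9.81 to 10.8, their median width from 677 to 746 bp and their median fragments from 58 to 62. These ranges include 2 alternatives chosen after the data were seen, the peak over the reference start and each shared peak counted once. The lowest values were those of the 45 members without a divergent coding partner. The share of members with such a partner ran from 34.6% (reference starts only) to 47.4% (partners of any gene type), and that of all protein-coding genes from 9.13% to 22.7% under the same settings. No paired analysis was possible because the data used came from a single library, and for the same reason none could be left out. Depth limits the ranking of members, since the lowest peak counts rest on 19 to 22 fragments.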
